A study of Mus musculus with 6 samples.

Results

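The Hox genes of the 4 mouse clusters, Hoxa, Hoxb, Hoxc and Hoxd, were examined in whole embryos homozygous for a nonsense allele of *Smchd1*. Members were the rows of the expression table with a gene symbol made of Hox, a cluster letter and a paralogue number. The table held 34 such rows out of 24207, and 32 of them, with 38 Hox symbols, are described here. In 6 of the 32, several Hox genes were joined into 1 value.

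RNA-seq had been performed on total RNA of 6 male embryos at embryonic day 9.5 (E9.5), 3 *Smchd1*+/+ (wildtype) and 3 *Smchd1*MommeD1/MommeD1 (mutant), to look for autosomal genes that depend on *Smchd1*. The allele, MommeD1, came from a chemical mutagenesis screen, and embryos of both genotypes came from matings between heterozygous parents. The labels give the strain as C57Bl6/J x FVB/n, whereas the study's text describes a backcross to another inbred background for these embryos. Every cell of an embryo carries the allele, and a whole embryo mixes all tissues in unknown proportions.

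The table gave 1 value per genotype, pooled by the authors over the 3 embryos, in FPKM (fragments per kilobase of transcript, scaled to the number of mapped fragments). No spread between embryos could be computed, so no difference below has a replicate check, and "higher" and "lower" describe the 2 pooled values alone. The depth is unknown. In whole embryos, fewer cells of a type and less RNA per cell cannot be told apart. *Smchd1* itself (chr17:71344415-71475343) stood at 2.12 FPKM in mutant embryos and 34.0 FPKM in wildtype, a log2 ratio of −3.94, so the column order matched the genotypes.

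Hox genes encode homeodomain transcription factors that give cells their position along the head to tail axis. Within a cluster the genes lie on the chromosome in the order in which they are switched on and in which they are expressed along the body, from the hindbrain (low paralogue numbers) to the tail, limb ends and genital bud (high numbers). Genes with the same number in different clusters, called paralogues, descend from the same ancestral gene and often share roles.

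On the mm10 build the Hox rows spanned chr6:52155352-52260880 (Hoxa, 8 rows), chr11:96194361-96368340 (Hoxb, 9 rows), chr15:102921131-103036852 (Hoxc, 8 rows) and chr2:74668310-74765142 (Hoxd, 7 rows). The sequences below lie directly upstream of the 4 genes that differed by at least 1.5-fold between the genotypes among Hox rows with a mean of at least 1 FPKM, with 0.1 FPKM added to both values, a pair from the low and a pair from the high end of the clusters. They are RefSeq promoter windows of the GRCm38.p6 build, 5′ to 3′ on the coding strand, cut back to bases outside the annotated gene. Capitals mark matches, on either strand, to TGATNNAT, a core of the sites at which Pbx and Hox proteins bind together, or to TTTATG, a core of Cdx binding sites.
*Hoxb1*, chr11:96365508-96365722, plus strand: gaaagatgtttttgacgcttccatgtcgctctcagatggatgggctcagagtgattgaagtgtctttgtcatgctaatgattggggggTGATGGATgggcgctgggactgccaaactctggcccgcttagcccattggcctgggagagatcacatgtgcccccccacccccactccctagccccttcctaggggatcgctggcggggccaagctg
*Hoxd1*, chr2:74762730-74762979, plus strand: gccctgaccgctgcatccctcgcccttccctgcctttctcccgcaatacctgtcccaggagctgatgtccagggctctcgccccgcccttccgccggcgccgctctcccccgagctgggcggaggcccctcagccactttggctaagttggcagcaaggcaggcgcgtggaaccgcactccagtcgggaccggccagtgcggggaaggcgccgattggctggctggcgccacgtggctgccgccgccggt
*Hoxa11*, chr6:52245811-52246060, minus strand: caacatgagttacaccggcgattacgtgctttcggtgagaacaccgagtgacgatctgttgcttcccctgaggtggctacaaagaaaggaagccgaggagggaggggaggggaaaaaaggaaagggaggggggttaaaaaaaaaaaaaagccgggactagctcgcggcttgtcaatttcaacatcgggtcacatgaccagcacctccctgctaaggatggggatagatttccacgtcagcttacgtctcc
*Hoxd13*, chr2:74667975-74668224, plus strand: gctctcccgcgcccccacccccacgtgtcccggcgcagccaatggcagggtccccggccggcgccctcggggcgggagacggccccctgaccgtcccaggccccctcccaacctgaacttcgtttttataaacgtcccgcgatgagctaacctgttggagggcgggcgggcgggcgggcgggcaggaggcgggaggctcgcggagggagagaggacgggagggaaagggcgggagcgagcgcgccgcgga

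The *Hoxb1* window held a TGATNNAT match and the other 3 held neither motif. Promoter windows were found for 22 of the 38 Hox symbols, 24 windows in all. Over the full 250 bases upstream, TGATNNAT matched in 4 of the 24 (16.7%), beside 7.68% of all 32851 windows, and TTTATG in 5 of the 24 (20.8%), beside 10.8%. Matches of the pair can overlap by their end bases. The Hox windows were also richer in CpG dinucleotides, with a median of 12.5 against 6 over all windows, and a median GC content of 58.6% against 52.4%. *Hoxd13* had 31 CpG in its 250 bases, *Hoxd1* 24, *Hoxa11* 13 and *Hoxb1* 7, so neither the genes higher in mutant embryos nor those lower were alike in this measure.

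A ratio is given throughout as log2((mutant FPKM + 0.1)/(wildtype FPKM + 0.1)), a scale that understates differences of low values. Rows with a mean of at least 1 FPKM were counted, and a row was called higher or lower past 1.5-fold on this scale (0.58). Of the 32 Hox rows, 27 reached that mean, with means from 1.10 to 33.8 FPKM. The 5 that did not were *Hoxa13*, *Hoxb13*, *Hoxc12*, *Hoxc13* and *Hoxd12*. Of the 27, 17 were higher and 10 lower in mutant embryos, with a median ratio of 0.08, beside −0.01 for all 12345 rows that reached the same mean. Past 1.5-fold, 2 were higher (*Hoxa11* and *Hoxd13*, 7.41%) and 2 lower (*Hoxb1* and *Hoxd1*, 7.41%). Over all rows, 3.54% were called higher and 1.46% lower. Among rows with a mean of 1 to 40 FPKM, the range in which the Hox rows lie, these shares were 4.07% and 1.51%. The summed level of the 32 rows was 297 FPKM in mutant embryos and 295 FPKM in wildtype. This sum includes a second *Hoxb5* row, described below, that appeared to lie on the strand opposite to its gene. That row had 18.1 FPKM in mutant embryos and 26.3 FPKM in wildtype, so the nearly equal total rests in part on it.

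**Figure D1:**
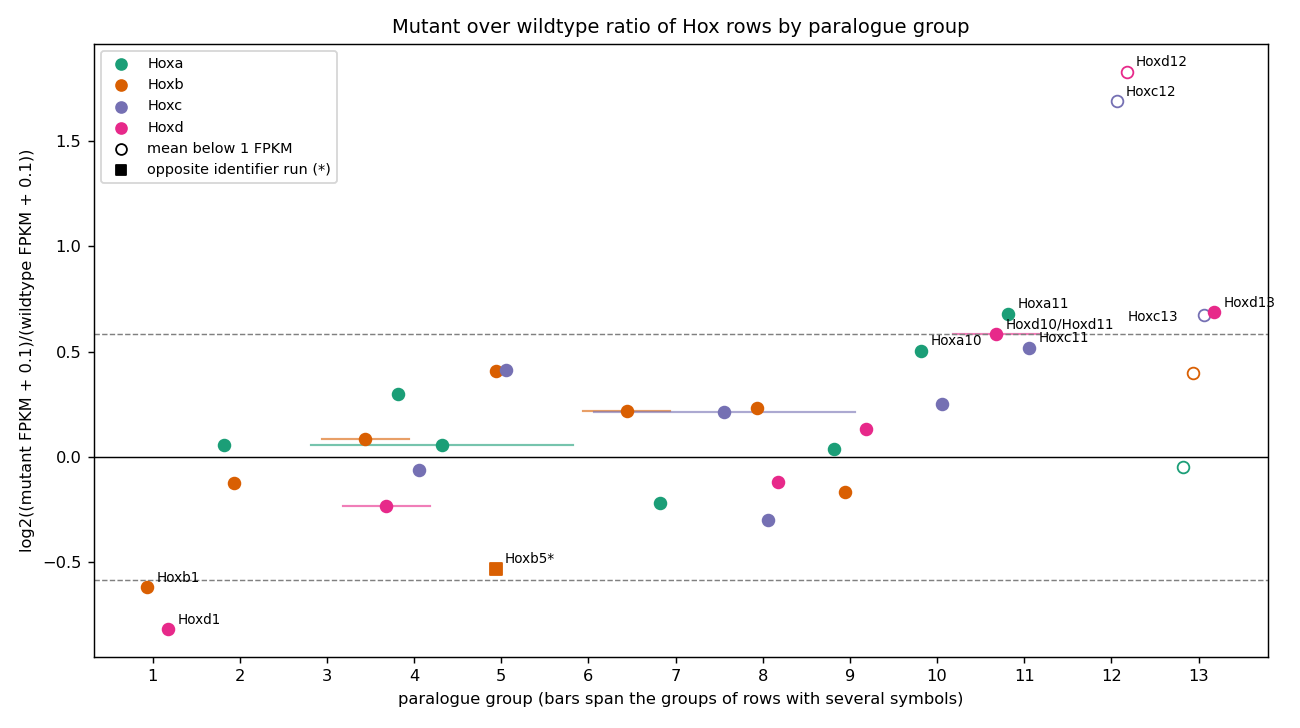
Log2 ratio of mutant over wildtype FPKM (vertical axis, 0.1 added to both) of the 32 Hox rows against paralogue group (horizontal axis). Colours are clusters, open points have a mean below 1 FPKM, the square is the row whose identifier runs opposite to its gene, bars span the groups of rows with several symbols, and dashed lines mark 1.5-fold. *Hoxb1* and *Hoxd1* lie at −0.62 and −0.82, and all rows of groups 10 and 11 lie between 0.25 and 0.68.

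*Hoxb1* and *Hoxd1*, of paralogue group 1, gave the lowest ratios of the rows described. *Hoxb1*, which gives the hindbrain segment of the facial nerve its identity, stood at 6.61 FPKM in mutant embryos and 10.2 FPKM in wildtype, a ratio of −0.62. *Hoxd1*, known from pain-sensing neurons, stood at 2.18 and 3.92 FPKM, a ratio of −0.82. Both were lower in mutant embryos, on different chromosomes (*Hoxb1* at chr11:96365723-96368340, *Hoxd1* at chr2:74762980-74765142), and each was alone in its locus. Their summed level was 8.80 FPKM in mutant embryos and 14.1 FPKM in wildtype. *Hoxb1* lay close to the 1.5-fold line and was on its other side, at −0.58 when both genotypes were scaled to the same total and at −0.56 with 1 FPKM added.

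The other low-numbered genes differed less. *Hoxa2*, which patterns the hindbrain and the branchial arches, had 8.65 FPKM in mutant embryos and 8.30 FPKM in wildtype. *Hoxb2*, active in the same hindbrain region as *Hoxb1*, had 22.1 and 24.1 FPKM. Neither was past 1.5-fold, with ratios of 0.06 and −0.13. Group 3 genes, which act in the lower hindbrain, neck vertebrae and pharyngeal organs, had no row of their own. *Hoxb3* and *Hoxb4* were joined at 15.4 FPKM in mutant embryos and 14.5 FPKM in wildtype. *Hoxd3* and *Hoxd4* were joined at 12.6 and 14.9 FPKM. *Hoxa3*, *Hoxa5* and *Hoxa6* were joined at 17.4 and 16.7 FPKM. Each of these joint values differed by less than 1.5-fold, and none can be assigned to a single gene.

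Groups 4 to 8 pattern the neck and chest part of the trunk and the matching spinal cord. *Hoxa4* had 6.36 FPKM in mutant embryos and 5.16 FPKM in wildtype, whereas *Hoxc4* had 8.60 and 8.98 FPKM. For group 5, *Hoxb5* had 8.73 and 6.56 FPKM, the highest ratio of the Hoxb cluster at 0.41. *Hoxc5* had 6.05 and 4.52 FPKM, likewise a ratio of 0.41. These 2 rows of group 5, whose genes act at the level of the neck and forelimb, were thus higher in mutant embryos, below 1.5-fold. A second *Hoxb5* row, described below, was lower, and the joint row that holds *Hoxa5* was close to equal. *Hoxb6* and *Hoxb7*, joined in 1 row, had 15.1 and 12.96 FPKM. *Hoxa7*, a gene of the chest vertebrae, had 11.5 and 13.4 FPKM, the reverse direction. Group 8 was divided as well. *Hoxb8*, active in the trunk spinal cord and in blood progenitors, had 21.9 and 18.6 FPKM. *Hoxc8*, a gene of the forelimb and chest level, had 5.94 and 7.35 FPKM, the lowest ratio of the Hoxc cluster at −0.30. *Hoxd8* had 4.26 and 4.64 FPKM. No row of groups 4 to 8 was past 1.5-fold.

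Groups 9 to 13 pattern the lower trunk, the tail and the limbs. *Hoxb9*, a gene of the rib-bearing trunk, had the highest level of any Hox row, 31.9 FPKM in mutant embryos and 35.8 FPKM in wildtype. *Hoxa9*, also known from blood progenitors, had 10.5 and 10.2 FPKM. *Hoxd9* had 10.1 and 9.20 FPKM. Group 9 therefore stood close to equal, with ratios from −0.17 to 0.13, and *Hoxc9* was joined with *Hoxc6* at 14.5 and 12.5 FPKM. Group 10, which suppresses ribs in the lumbar region, was higher in mutant embryos in every row. *Hoxa10* had 6.32 and 4.43 FPKM, a ratio of 0.50. *Hoxc10* had 10.3 and 8.67 FPKM, a ratio of 0.25. *Hoxd10* and *Hoxd11*, joined in 1 row at chr2:74682073-74695102, had 10.2 and 6.74 FPKM, a ratio of 0.58 that lay just below the 1.5-fold line on the scale used.

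Group 11 genes act in the sacral region, the kidney and the forearm and lower leg. *Hoxa11*, whose row is given the locus chr6:52242106-52249928 that it shares with an antisense gene, had 3.17 FPKM in mutant embryos and 1.94 FPKM in wildtype, a ratio of 0.68. *Hoxc11* had 1.32 and 0.890 FPKM, a ratio of 0.52, the highest of the Hoxc rows that reached the mean. Both were higher in mutant embryos. The libraries do not mark the strand, and the antisense gene *Hoxa11as* in the locus of *Hoxa11* had 3.98 and 2.63 FPKM (ratio 0.58), so reads of *Hoxa11* and its antisense partner cannot be told apart.

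Groups 12 and 13 are the last of each cluster and act in the digits, tail end and genital bud. *Hoxd13* (chr2:74668310-74671598), alone in its locus, had 4.01 FPKM in mutant embryos and 2.45 FPKM in wildtype, a ratio of 0.69 that was the highest among rows that reached the mean. *Hoxd12*, its neighbour, had 1.21 and 0.269 FPKM. *Hoxc12* had 0.631 and 0.127 FPKM. Both group 12 genes were higher in mutant embryos, but their means were below 1 FPKM. With no minimum mean, 6.38% of all rows with any signal were past 1.5-fold higher and 3.02% lower. *Hoxc13*, known from hair follicles and the tail, had 0.182 and 0.0767 FPKM. *Hoxa13*, needed for the digits, had 0.718 and 0.746 FPKM, so it did not share the direction of *Hoxd13*. *Hoxb13* had 0.0316 FPKM in mutant embryos and was listed at 0 in wildtype embryos, and no fold is given for it.

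**Figure D2:**
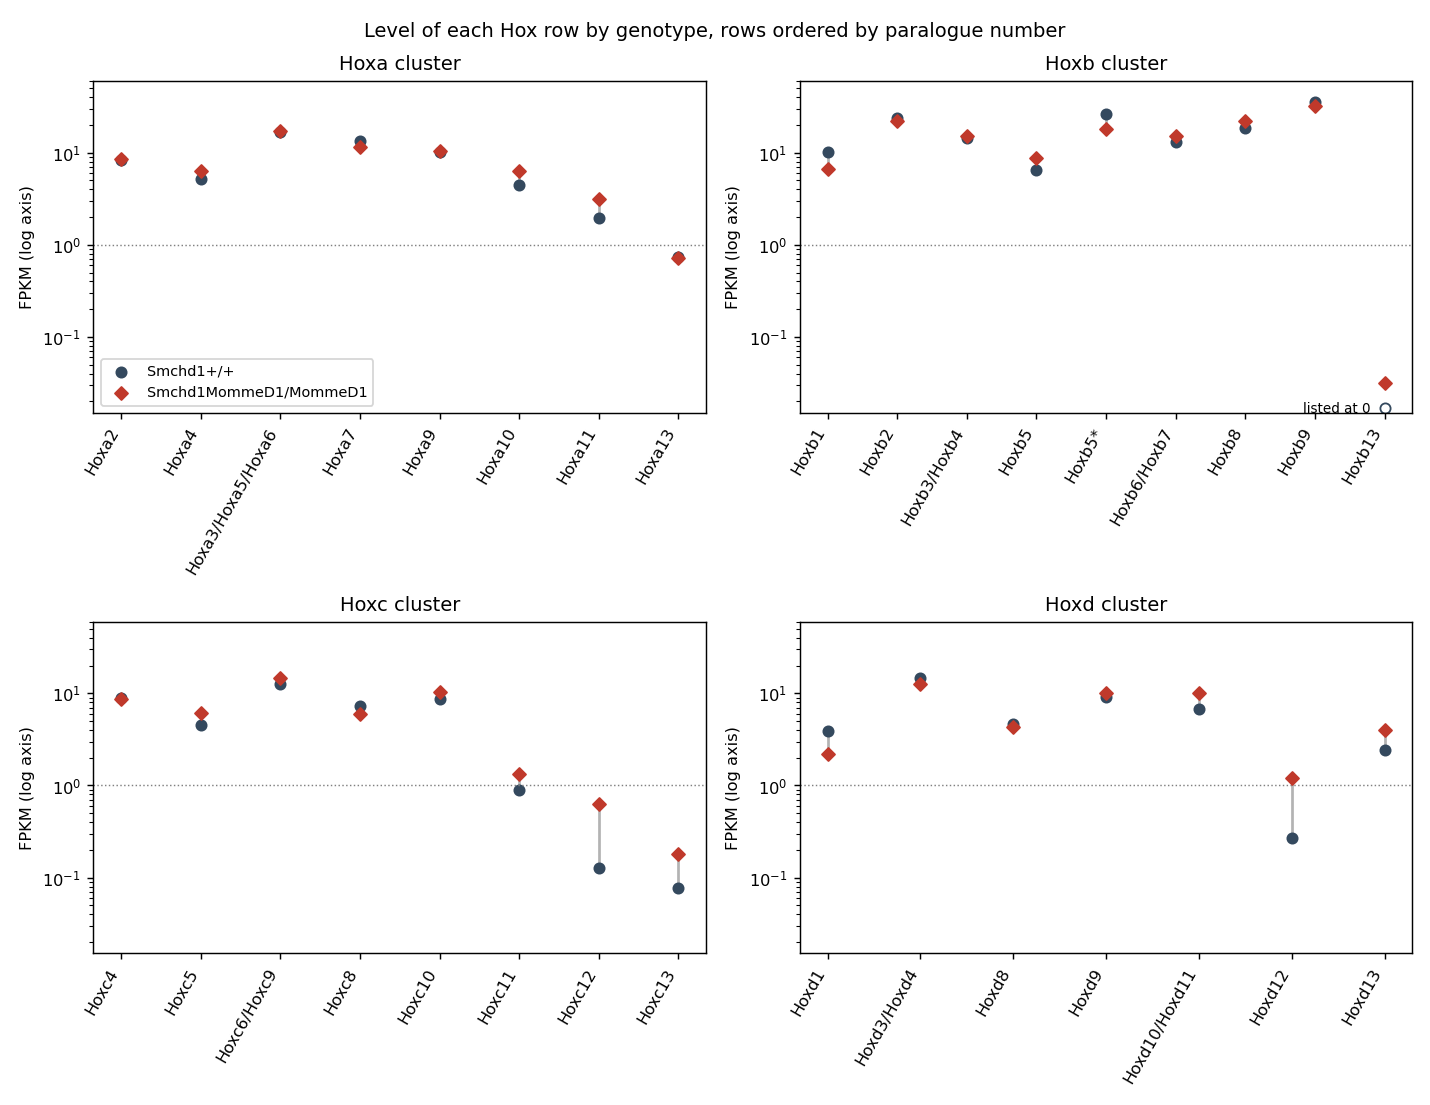
FPKM of each Hox row (vertical log axis) in *Smchd1*+/+ (circles) and *Smchd1*MommeD1/MommeD1 (diamonds) embryos, 1 panel per cluster, rows ordered by paralogue number along the horizontal axis. Each point is 1 pooled value, the dotted line marks 1 FPKM, the asterisk marks the row with an opposite identifier, and the open circle is *Hoxb13*, listed at 0. Diamonds lie below circles for *Hoxb1* and *Hoxd1* and above them for *Hoxa10*, *Hoxa11*, *Hoxc11* and *Hoxd13*.

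A further *Hoxb5* row appeared to lie on the strand opposite to its gene. Row identifiers run along each chromosome once per strand, and the strand read from this order equalled that of the GENCODE M21 annotation for 20267 of 20330 symbols (99.7%). This *Hoxb5* row had 18.1 FPKM in mutant embryos and 26.3 FPKM in wildtype (ratio −0.53). GENCODE places the noncoding gene *Hoxb5os* on that strand there. Whether the row measures that gene was not tested. The 2 *Hoxb5* rows differed in opposite directions between the genotypes, so no single value can be given for *Hoxb5*.

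Grouped by position in the cluster, the class medians were ordered from anterior to posterior, an order that rested on rows of low level. The anterior class (groups 1 to 3, 4 rows) had a median ratio of −0.37, with 3 rows lower in mutant embryos and *Hoxa2* higher. The central class (groups 4 to 8, 10 rows) had a median of 0.08, with 5 rows higher and 5 lower. The posterior class (groups 9 to 13) had a median of 0.50 over the 9 of its 14 rows that reached the mean, with 8 higher and only *Hoxb9* lower. Of the 9, *Hoxc11* reached the mean only through its mutant value, and without it the posterior median was 0.38. The 4 rows joining genes of different classes had a median of 0.07. With rows above a mean of 5 FPKM only, which leaves out *Hoxd1*, *Hoxd8*, *Hoxa11*, *Hoxc11* and *Hoxd13*, the anterior median was −0.13, the central median 0.22 and the posterior median 0.19, so the posterior class no longer stood above the central class.

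Described as a rank correlation over rows, with no test because the rows share the same pooled libraries and in part the same loci, the ratio went with paralogue number at a Spearman rho of 0.62 (27 rows). Within clusters rho was 0.36 in Hoxa (7 rows), 0.38 in Hoxb (8 rows), 0.43 in Hoxc (6 rows) and 1 in Hoxd (6 rows). In Hoxd the order of the ratios of these 6 rows was thus the order of the genes. They were *Hoxd1* (−0.82), *Hoxd3* with *Hoxd4* (−0.23), *Hoxd8* (−0.12), *Hoxd9* (0.13), *Hoxd10* with *Hoxd11* (0.58) and *Hoxd13* (0.69). *Hoxd12*, between *Hoxd11* and *Hoxd13*, did not reach the mean and is left out. Its ratio of 1.83 was above that of *Hoxd13*, so the order did not hold with it. Rows of several symbols entered at the mean of their paralogue numbers. Over the 12 passing rows that were alone in their locus, rho was 0.87, and with the filter of 5 FPKM it was 0.42 over all rows.

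The clusters as wholes differed little from each other in median ratio, at 0.06 for Hoxa, −0.02 for Hoxb, 0.23 for Hoxc and 0.01 for Hoxd. The sign of the Hoxb and Hoxd medians changed with the scaling between genotypes. Hoxc, whose cluster starts at *Hoxc4* and so lacks the genes of groups 1 to 3, had 4 of 6 passing rows higher in mutant embryos. Quotients within a cluster cannot be changed by any scaling between genotypes. The last gene of each cluster that reached the mean was set over the first one described. *Hoxa11* over *Hoxa2* was 0.367 in mutant and 0.234 in wildtype embryos. *Hoxd13* over *Hoxd1* was 1.84 and 0.624. *Hoxb9* over *Hoxb1* was 4.82 and 3.51, and *Hoxc11* over *Hoxc4* was 0.153 and 0.0991. Mutant quotients were thus 1.57, 2.94, 1.37 and 1.55 times those of wildtype embryos, in that order of naming. The choice of the last gene bears on this, since *Hoxc11* reached the mean only through its mutant value and *Hoxa13* did not reach it. *Hoxa13* over *Hoxa2* was 0.0831 in mutant and 0.0899 in wildtype embryos, the reverse direction, and *Hoxc10* over *Hoxc4* was 1.202 and 0.965. Over all posterior rows above 0 in both genotypes, whatever their mean, 11 of 13 such quotients were higher in mutant embryos and 2, those of *Hoxa9* and *Hoxa13*, were lower. Quotients of a cluster share the same denominator, so the 13 are not separate observations. In Hoxb and Hoxd the denominators, *Hoxb1* and *Hoxd1*, were themselves lower in mutant embryos, which raises every quotient there. *Hoxb9* was lower in mutant embryos, yet its quotient was higher. *Hoxc12*, *Hoxc13* and *Hoxd12*, counted as higher, did not reach the mean, nor did *Hoxa13*.

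Shares of the summed Hox level give the same comparison without any ratio. Anterior rows held 13.3% of the sum in mutant and 15.8% in wildtype embryos, a difference of −2.43 percentage points. Posterior rows held 30.5% and 27.6%, 2.90 percentage points higher. Central rows held 35.9% and 36.8%. The anterior and posterior shares thus differed in opposite directions, and the central share by less than either. Most of the anterior difference was in *Hoxb1* and *Hoxd1*, whose joint share was 2.97% in mutant and 4.79% in wildtype embryos. On the posterior side, group 10 held 5.62% and 4.44%, group 11 1.51% and 0.960%, group 12 0.621% and 0.134%, and group 13 1.67% and 1.11%, whereas group 9 held 17.7% and 18.7%. By cluster, Hoxb held the largest part in either genotype, 47.1% in mutant and 50.5% in wildtype embryos, and Hoxa 21.8% and 20.7%. Part of the Hoxb difference of −3.35 percentage points lay in the second *Hoxb5* row, and without that row it was −1.95 points. Hoxc held 16.0% and 14.6%, and Hoxd 15.03% and 14.3%.

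**Figure D3:**
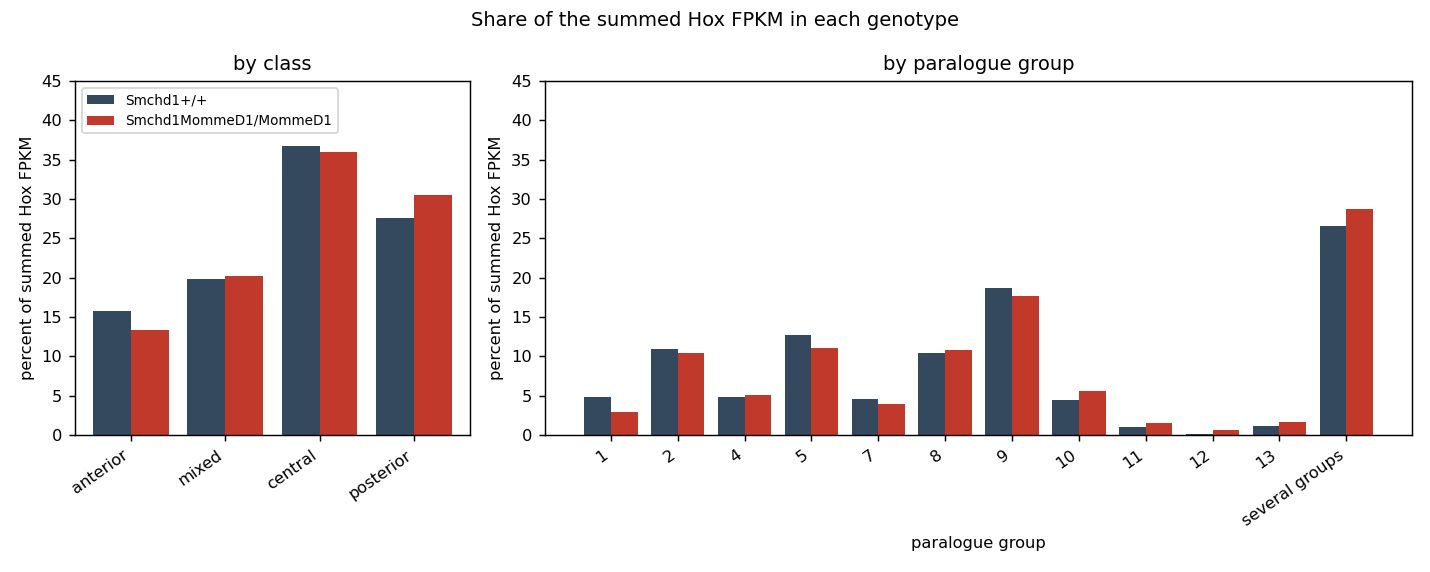
Percent of the summed Hox FPKM (vertical axis, from 0) held by each class (left) and each paralogue group (right) in *Smchd1*+/+ (dark) and *Smchd1*MommeD1/MommeD1 (red) embryos. Bars are single pooled values without error. The anterior share is 13.3% in mutant and 15.8% in wildtype embryos, and the posterior share is 30.5% and 27.6%.

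Rows inside the clusters that carry no coding Hox symbol numbered 21, of which 6 reached a mean of 1 FPKM. Over all rows that reached the same mean, 3.54% were past 1.5-fold higher and 1.46% lower. Of the 6, none was past 1.5-fold higher and 2 (33.3%) were lower. These were *2700086A05Rik*, in the locus of *Hoxa4*, at 3.86 FPKM in mutant embryos and 10.3 FPKM in wildtype (ratio −1.39), and an unnamed row in the locus of *Hoxa2* at 1.12 and 1.73 FPKM (ratio −0.59). The noncoding RNA *Hotair* of the Hoxc cluster had 0.106 and 0.0483 FPKM, too low to compare. Of the microRNA genes in the clusters, *Mir196b* had 0.489 and 0.680 FPKM, and *Mir196a-2* and *Mir615* were listed at 0 in both genotypes. Among the 74 rows within 500 kb of a cluster, 37 reached the mean, with a median ratio of −0.03. Past 1.5-fold, 1 was higher (2.70%) and 3 were lower (8.11%). One of the lower ones was *Evx1*, the homeobox gene beyond *Hoxa13* that is expressed in the tail bud, at 1.19 FPKM in mutant embryos and 2.93 FPKM in wildtype (ratio −1.23). Another, *5730457N03Rik*, was given the same locus, at 1.07 and 2.29 FPKM (ratio −1.03). The libraries do not mark the strand, so reads of these 2 cannot be told apart. The last was an unnamed row at 1.54 and 2.47 FPKM (ratio −0.64). All 3, and both lower rows inside the clusters, lay at Hoxa. *Evx2*, which lies beyond *Hoxd13*, had 0.111 and 0.193 FPKM, too low to compare.

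RNA levels of genes whose proteins bind DNA together with Hox proteins differed by less than 1.5-fold. Of the 9 TALE cofactor genes (Pbx, Meis and Pknox families), 8 were higher and 1 lower in mutant embryos, with a median ratio of 0.15, beside 48.3% higher and a median of −0.01 over all rows, and none was past 1.5-fold. Of 15 Polycomb and Trithorax genes, which hold Hox genes in their silent or active state, 1 was a failed estimate and the other 14 had a median of −0.01, none past 1.5-fold. The 51 of 62 other homeobox genes described that reached the mean had a median of 0.07, with 3 higher (5.88%) and 1 lower (1.96%). The 3 were *Lhx9* (5.55 FPKM in mutant, 2.31 FPKM in wildtype embryos), *Barx1* (10.8 and 6.46 FPKM) and *Lhx2* (20.3 and 13.1 FPKM), genes of the limb bud, stomach and brain. The gene that was lower was *Evx1*.

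Known regulators of Hox genes were mixed. For comparison, 3.54% of all rows that reached the mean were past 1.5-fold higher and 1.46% lower. Cdx proteins, themselves relatives of the Hox proteins, switch on central Hox genes in the tail bud. *Cdx1* had 2.30 FPKM in mutant embryos and 4.49 FPKM in wildtype (ratio −0.94). *Cdx2* had 3.22 and 10.1 FPKM (ratio −1.62). *Cdx4* had 4.24 and 14.4 FPKM (ratio −1.74). All 3 were past 1.5-fold lower, and they were the members of the list of 6 Cdx and ParaHox genes that reached the mean (median −1.62). Their ratios lay further from 0 than those of the Hox rows described that reached the mean. The central Hox class had a median of 0.08. That median was 0.22 without the second *Hoxb5* row and −0.12 with only rows alone in their locus. A link between the Cdx and Hox levels was not tested. *Gdf11*, a secreted factor that brings on the posterior Hox genes, had 10.1 and 8.04 FPKM (ratio 0.33), and none of the 8 passing genes of its pathway was past 1.5-fold (median 0.0041). Retinoic acid, made by *Aldh1a2* and removed by Cyp26 enzymes, switches on *Hoxb1*, and none of the 7 retinoic acid genes was past 1.5-fold (median 0.01). They were divided, with 4 higher and 3 lower. The lower ones were *Cyp26a1*, close to the line at 4.89 and 7.29 FPKM (ratio −0.57), *Cyp26c1* (−0.44) and *Aldh1a2* (−0.36). The higher ones, *Cyp26b1* and the receptor genes, had ratios of at most 0.20. Of the 5 hindbrain regulators, 3 reached the mean and all 3 were lower (median −0.40), with *Fgf3*, made in the segment next to the ear, past 1.5-fold at 1.41 and 2.36 FPKM. *Egr2*, which marks alternate hindbrain segments, did not reach the mean at 0.336 and 0.945 FPKM.

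Marker genes of several cell populations also differed between the genotypes, beside the Hox rows. For comparison, 3.54% of all rows that reached the mean were past 1.5-fold higher and 1.46% lower. Tail bud markers were lower past 1.5-fold in 7 of 12, with a median of −0.83 and a summed level of 56.0 FPKM in mutant embryos and 79.8 FPKM in wildtype. In all, 10 of the 12 were lower and 2 higher, with 0 past 1.5-fold higher. Among the lower ones *T*, which defines the tail bud mesoderm, had 3.23 and 7.75 FPKM (ratio −1.24), *Hes7* a ratio of −1.52 and *Nkx1-2* a ratio of −1.38. *Hes7*, at 0.922 and 2.83 FPKM, reached the mean only through its wildtype value. *Cdx2*, described above, is in this list as well. Neuron markers were higher past 1.5-fold in 8 of 9, with a median of 1.37 and a sum of 196 and 80.1 FPKM. *Tubb3*, the neuronal tubulin, had 99.9 and 37.0 FPKM, and *Dcx*, a marker of young neurons, had 5.37 and 1.62 FPKM. Primitive blood markers were higher past 1.5-fold in 6 of 7, with a median of 1.003 and a sum of 12693 and 6009 FPKM, with the embryonic globin *Hbb-y*, the highest in ratio, at 4191 and 1787 FPKM. Of the limb bud markers, several of which are also in the list of other homeobox genes, 2 of 9 were higher past 1.5-fold (*Lhx9* and *Lhx2*), with a median of 0.02 and a sum of 97.7 and 79.7 FPKM. Of 10 yolk sac visceral endoderm markers, 5 reached the mean and were divided, with 2 past 1.5-fold higher and 3 lower (median −0.85), for example *Afp* at 14.7 and 8.10 FPKM and *Ttr* at 2.48 and 7.51 FPKM. Their sum was 30.8 and 36.9 FPKM, and 1 of them was below 0.1 FPKM. No marker of any list was at 0 in both genotypes. The part of these populations in the Hox ratios was not tested.

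**Figure D4:**
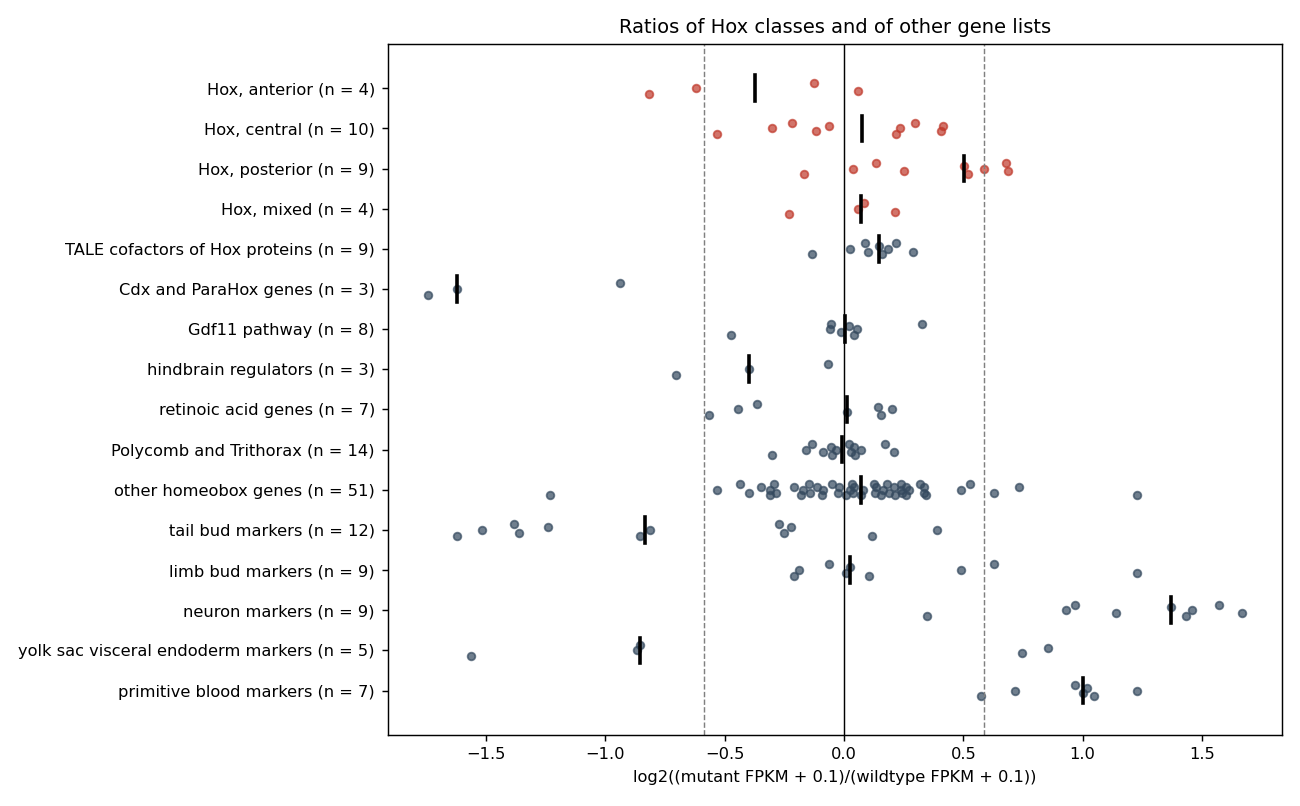
Log2 ratio of mutant over wildtype FPKM (horizontal axis, 0.1 added to both) for the rows of each Hox class (red) and each other gene list (dark) that reached a mean of 1 FPKM. Points are single rows, black bars medians and dashed lines 1.5-fold in either direction. Medians run from −0.37 (anterior) to 0.50 (posterior) for the Hox classes, beside −1.62 for Cdx and ParaHox genes, −0.83 for tail bud and 1.37 for neuron markers.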

How the data were processed

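RNA of 6 whole male E9.5 embryos was sequenced as nondirectional single-end reads of 100 bp. Per the study's methods and the submitters' processing notes, the authors aligned reads to mm10 with TopHat2 2.0.6 and Bowtie2 2.0.2 and ran Cufflinks and Cuffdiff 2.0.2; the annotation release is not given in the sources used here. The deposited table holds 1 FPKM value per genotype, normalised and pooled by the authors over 3 embryos each, and the authors' fold change, test statistic, p-value and q-value, which were not used. The depth is unknown. The table names its columns by short labels; they were matched to genotypes through the study's own copy of the table.

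Ratios were computed with Python 3.11.15, numpy 2.4.6 and pandas 2.3.3 (rank correlations with scipy 1.17.1, plots with matplotlib 3.10.9) after adding 0.1 FPKM, for rows with a mean of at least 1 FPKM; 134 failed estimates were left out. With 1 pooled value per genotype, these values allowed no test. Total FPKM was 941511 in mutant and 970248 in wildtype embryos, and no rescaling was applied. The counting script was tested on simulated data. Withheld items, among them 2 Hox rows, are not reported here and stayed out of Hox and list values. All other Hox members are named with both FPKM values; of other lists, at most the 4 genes with the largest ratios past 1.5-fold are named, plus Cdx, Evx, *Gdf11*, *T* and *Smchd1*. *Egr2*, *Hoxa11as*, *2700086A05Rik*, *5730457N03Rik*, *Hotair*, *Aldh1a2*, the Cyp26 genes and the microRNA genes lie outside that rule and were chosen after their values were seen. Members and lists were chosen with earlier results of these data known. Alternatives changed the added value, the minimum mean, the scaling, the fold, the classes and the rows entered.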

Additional observations from a re-analysis of the deposited data

How the results depend on the processing

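No paired analysis was possible because the table gives 1 pooled value per genotype; leaving out each embryo in turn was likewise not possible. A value was taken to have moved when it changed by over 0.1 (log2 ratio or rho), 2 percentage points of a share, or 1.5 times a count. Of the ratios of single rows under alternatives, 180 moved less than this, 4 moved and none changed sign; *Hoxd1*, *Hoxa11*, *Hoxc11* and *Hoxd13* moved once each, to −0.63, 0.50, 0.29 and 0.54 with 1 FPKM added. Across all alternatives *Hoxb1* ranged from −0.63 to −0.56, *Hoxd1* from −0.85 to −0.63, *Hoxa11* from 0.50 to 0.72 and *Hoxd13* from 0.54 to 0.73. Of the list medians 30 of 36 and of the share differences 20 of 24 moved less than this, as did 91 of the 127 other medians and counts, of which 28 moved and 8 changed sign.

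With 1 FPKM added, no Hox row was past 1.5-fold higher and 1 was lower, the posterior median was 0.29, and the list medians were −1.40 (Cdx and ParaHox), −0.64 (tail bud), 1.254 (neuron) and −0.63 (yolk sac). Without a minimum mean, 5 of 32 rows were higher and 2 lower, beside 6.38% and 3.02% of all rows with any signal. The cluster medians were then 0.083 (Hoxb, reversed), 0.33 (Hoxc) and 0.13 (Hoxd). With a mean of at least 5 FPKM, 0 rows were higher and 1 lower, the medians were −0.13 (anterior), 0.22 (central), 0.19 (posterior) and 0.13 (Hoxd), and rho was 0.42. Centring on the median row turned the Polycomb median to 0.00070, and an equal total FPKM turned it to 0.036 and that of Hoxb to 0.022, with 1 Hox row lower; an equal total over named rows of at least 200 bp turned that of Hoxd to −0.0081. These scalings set the median of all rows between −0.02 and 0.04.

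With only rows alone in their locus, 1 of 12 rows was higher and 2 lower, beside 3.54% and 1.46% of all rows. The median of all Hox rows then reversed to −0.018 and those of central and Hoxd rows to −0.12. The others that moved were −0.62 (anterior), −0.13 (Hoxb) and 0.39 (Hoxc), and rho was 0.87. The share difference of anterior rows was −4.79 points, and that of central rows reversed to 1.14 points. A fold of 2 left 0 higher and 0 lower, and a lower fold threshold gave 7 higher and 3 lower. The share of all rows past either of these thresholds was not computed, so these counts have no background to be set against. Counting group 4 as anterior gave an anterior median of −0.093. Without the row of opposite identifier, an alternative chosen after seeing the data, the medians were 0.22 (central) and 0.083 (Hoxb, reversed), and the share differences of central and mixed rows reversed to 1.19 and −0.27 points. With only rows of 1 symbol, also chosen after seeing the data, they were −0.062 (central, reversed), 0.38 (posterior), 0.18 (Hoxa) and −0.15 (Hoxb). With only rows at 1 FPKM or more in wildtype, likewise chosen after seeing the data, *Hoxc11* was left out and the posterior median was 0.38. The anterior median stayed negative and the posterior median positive under every alternative run. The cause of the other reversals was not tested.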

Other observations

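Several homeobox genes outside the Hox clusters were below a mean of 1 FPKM and are given as values alone. The ParaHox gene *Gsx1*, active in the embryonic brain and spinal cord, had 0.760 FPKM in mutant embryos and 0.170 FPKM in wildtype, and its relative *Gsx2* had 0.604 and 0.324 FPKM. *Lhx4* and *Lhx3*, genes of motor neurons and the pituitary, had 0.958 and 0.204 FPKM and 0.981 and 0.488 FPKM. *Tlx3*, a gene of sensory neurons, had 0.830 and 0.253 FPKM. All 5 were higher in mutant embryos, but they were chosen after their values were seen, so their shared direction shows no pattern. *Evx2*, a homeobox gene also below that mean, was lower, at 0.111 and 0.193 FPKM. With no minimum mean, 6.38% of all rows with any signal were past 1.5-fold higher and 3.02% lower.

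*Mstn*, the closest relative of *Gdf11*, had 1.32 FPKM in mutant embryos and 0.514 FPKM in wildtype, below the minimum mean, and was likewise chosen after its values were seen.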
